A study of Mus musculus with 56 samples.

Results

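Heat shock and cold-inducible genes respond to temperature, and 10 of them were followed through the day in visceral adipose tissue (VAT) of mice fed either by day or by night. They are Hsf1, Hspa1a, Hspa1b, Hspa8, Hsph1, Hsp90aa1, Dnajb1, Hspb1, Cirbp and Rbm3, chosen by name from the 25939 genes of the deposited table, and each of the 10 was measured in every library. Female C57BL/6J mice, 9 weeks old at collection, were kept in a 12 h light and 12 h dark cycle on normal chow. For the last 7 days food was given either in the daytime (daytime-restricted feeding, DRF) or at night (nighttime-restricted feeding, NRF, the reference). VAT was taken every 4 h from ZT0 to ZT24, where zeitgeber time (ZT) counts hours from lights on, from 4 mice per time point and regimen. This gave 14 groups and 56 libraries of a mouse each, and ZT0 and ZT24 were separate mice. All mice shared the light cycle, the chow, the strain and the sex, so that the regimens differed in the phase of the day with food. There was no group with free access to food, the clock hours of food access are not given in the sources used here, and body temperature was not analysed here. The whole fat depot was sequenced, so fewer cells of a type and less RNA per cell cannot be told apart.

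Hsf1 encodes heat shock factor 1, a transcription factor that is held inactive by chaperones, is released when unfolded proteins accumulate, and then binds heat shock elements, which are inverted repeats of nGAAn, in the promoters of chaperone genes. Its classical targets are the inducible Hsp70 genes Hspa1a and Hspa1b, the Hsp110 gene Hsph1, the cytosolic Hsp90 gene Hsp90aa1, the Hsp40 cochaperone Dnajb1 and the small heat shock protein Hspb1. Cirbp and Rbm3 encode RNA-binding proteins that rise at mildly lowered temperature and affect mRNA stability and the choice of polyadenylation site. In rodents, feeding and activity raise body temperature, and the daily temperature cycle is a known timing cue for peripheral clocks.

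Sequencing depth was similar across libraries, with 31144102 to 41246347 recovered reads on genes (median 35541820). Levels are given as CPM, read counts divided by a size of each library that the deposited values imply. This size was 0.934 to 1.36 times the library's own read total. Adipocyte marker genes, Adipoq and Plin1 among 6 on the list, summed to 8747 to 31095 CPM in the 56 libraries, as fits the labelled tissue. A list of epithelial genes chosen as uterine markers (Epcam, Krt7, Krt8, Krt18, Wfdc2 and Cdh1) summed to at most 85.2 CPM in 54 libraries. It summed to 527 CPM in DRF ZT8 replicate 1 and 1223 CPM in DRF ZT0 replicate 4. The list does not tell the uterus from other epithelia, and the source of these transcripts was not tested. The term uterine markers below names this list only. The adipocyte sums of these 2 libraries were 8747 and 13609 CPM, in this order, against a median of 20772 CPM over the others. Calls of the members that changed without these 2 libraries are given both ways. Lymphocyte markers summed to at most 27.0 CPM, and Cd3e was under 1 CPM in every library.

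The promoters are shown first, because heat shock elements are where heat shock factor 1 is known to bind in the promoters of its targets. RefSeq promoter windows of 300 bases were at hand for 6 of the 10 members (Hspa1a, Hspa1b, Hsph1, Dnajb1, Hspb1 and Cirbp). The 150 bases upstream of a RefSeq start of the 4 members that hold a heat shock element match are printed 5′ to 3′ on the coding strand (GRCm38.p6), with the matches in capitals.
Hsph1, chr5:149636337-149636486, minus strand: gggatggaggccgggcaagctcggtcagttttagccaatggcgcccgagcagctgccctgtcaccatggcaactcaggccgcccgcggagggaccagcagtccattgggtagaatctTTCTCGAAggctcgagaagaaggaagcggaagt
Hspb1, chr5:135887769-135887918, plus strand: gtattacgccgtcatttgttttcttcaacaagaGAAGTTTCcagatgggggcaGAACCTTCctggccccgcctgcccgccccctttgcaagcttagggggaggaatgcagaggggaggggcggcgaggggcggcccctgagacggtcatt
Hspa1a, chr17:34972157-34972306, minus strand: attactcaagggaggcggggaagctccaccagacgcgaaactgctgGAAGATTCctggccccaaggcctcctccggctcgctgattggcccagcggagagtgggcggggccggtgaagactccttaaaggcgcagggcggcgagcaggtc
Hspa1b, chr17:34959239-34959388, minus strand: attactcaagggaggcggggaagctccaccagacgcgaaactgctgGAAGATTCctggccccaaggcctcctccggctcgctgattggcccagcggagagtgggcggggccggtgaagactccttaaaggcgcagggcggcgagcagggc
The letters searched were 2 inverted repeats, GAANNTTC or TTCNNGAA, which are their own reverse complements and so cover both strands. Such a match was found in 15.1% of the 32851 RefSeq promoter windows of the mouse, and in the windows of Hspa1a, Hspa1b, Hspb1 and Hsph1. A run of 3 repeats, GAANNTTCNNGAA or TTCNNGAANNTTC, was in 0.603% of windows and, among the members, in that of Hsph1.
Hsph1, transcribed stretch, chr5:149636288-149636300, minus strand: TTCTGGAAAGTTC
This stretch of Hsph1 lies just downstream of the start used above and holds 2 overlapping matches to the shorter pattern. The E-box of the circadian clock, CACGTG, was in 7.15% of windows and again in that of Hsph1. The windows of Dnajb1 and Cirbp held none of these letters. These are matches of letters and say nothing on binding, and the GENCODE model of Hsph1 begins further upstream than the RefSeq start used for the printed stretch. The windows of Hspa1a and Hspa1b were identical at 296 of 300 bases (98.7%). The genes are near copies of each other, so that reads could have been split or lost between them in counting, and the level of either is uncertain.

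In GRCm38 the members are protein-coding genes on 8 chromosomes. The transcription factor gene is Hsf1 (ENSMUSG00000022556, chr15:76477422-76501913, plus strand). The Hsp70 and Hsp110 genes are Hspa1a (ENSMUSG00000091971, chr17:34969190-34972156, minus strand), Hspa1b (ENSMUSG00000090877, chr17:34956436-34959238, minus strand), Hspa8 (ENSMUSG00000015656, chr9:40800984-40810087, plus strand) and Hsph1 (ENSMUSG00000029657, chr5:149614287-149636376, minus strand). The other chaperone genes are Hsp90aa1 (ENSMUSG00000021270, chr12:110690605-110702728, minus strand), Dnajb1 (ENSMUSG00000005483, chr8:83608193-83612653, plus strand) and Hspb1 (ENSMUSG00000004951, chr5:135887919-135889563, plus strand). The cold-inducible genes are Cirbp (ENSMUSG00000045193, chr10:80165985-80172786, plus strand) and Rbm3 (ENSMUSG00000031167, chrX:8138975-8145880, minus strand). Values are sums over the exons of each gene.

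To compare levels between genes, CPM were divided by exon length in kb and averaged over the 56 libraries. Hspa8, the constitutive Hsp70 that folds new proteins and strips clathrin from vesicles, stood far above the others at 285 CPM per kb and was above Hspb1 in all 56 libraries. Hspb1 (90.6) and Hsp90aa1 (79.6) followed and changed places between libraries, Hspb1 being the higher in 40 of 56. Both were above the cold-inducible Rbm3 (19.1). Cirbp (12.9), Dnajb1 (12.2) and Hsph1 (10.6) had similar means. Their order was not stable, since Cirbp was above Dnajb1 in 29 of 56 libraries and Dnajb1 above Hsph1 in 38. Hspa1b (6.11), Hsf1 (3.18) and Hspa1a (1.90) were lowest.

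Which of the genes oscillate in VAT of night-fed mice was asked first. Under NRF, the heat shock genes were low in the light phase and high in the dark phase with food, while Cirbp ran the other way. A 24 h rhythm was called by the combined JTK_CYCLE and Lomb-Scargle test (Benjamini-Hochberg adjusted p under 0.05 over all genes) in 9 of the 10 members, against 25.2% of all genes. All 10 had a mean log2(CPM + 1) of at least 1, and of the 14106 genes with such a level 40.6% were called. Rbm3 was not called (adjusted p = 0.37). The median amplitude of a 24 h cosine on the log2(CPM + 1) scale was 0.64 over the members, 0.096 over all genes and 0.16 over the genes with such a level. Lomb-Scargle alone called 0 of the 10 after adjustment and 9 at an unadjusted p under 0.05. No share of all genes is given here for these counts. The p of this test allows for a search over many frequencies, although only 24 h was tested, so that it is strict. By limma's F test of the cosine all 10 were called (33.7% of all genes). Other genes of the tissue moved over the day as well: under NRF 4 of 5 blood genes and 4 of 6 adipocyte genes were called. The sum of the blood genes had its highest median, 463 CPM, at ZT8, where the mean of Cirbp was also highest, and its lowest, 232 CPM, at ZT0. The adipocyte sum had medians from 17671 CPM at ZT24 to 22628 CPM at ZT8. Their part in the members' rhythms was not tested.

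**Figure D1:**
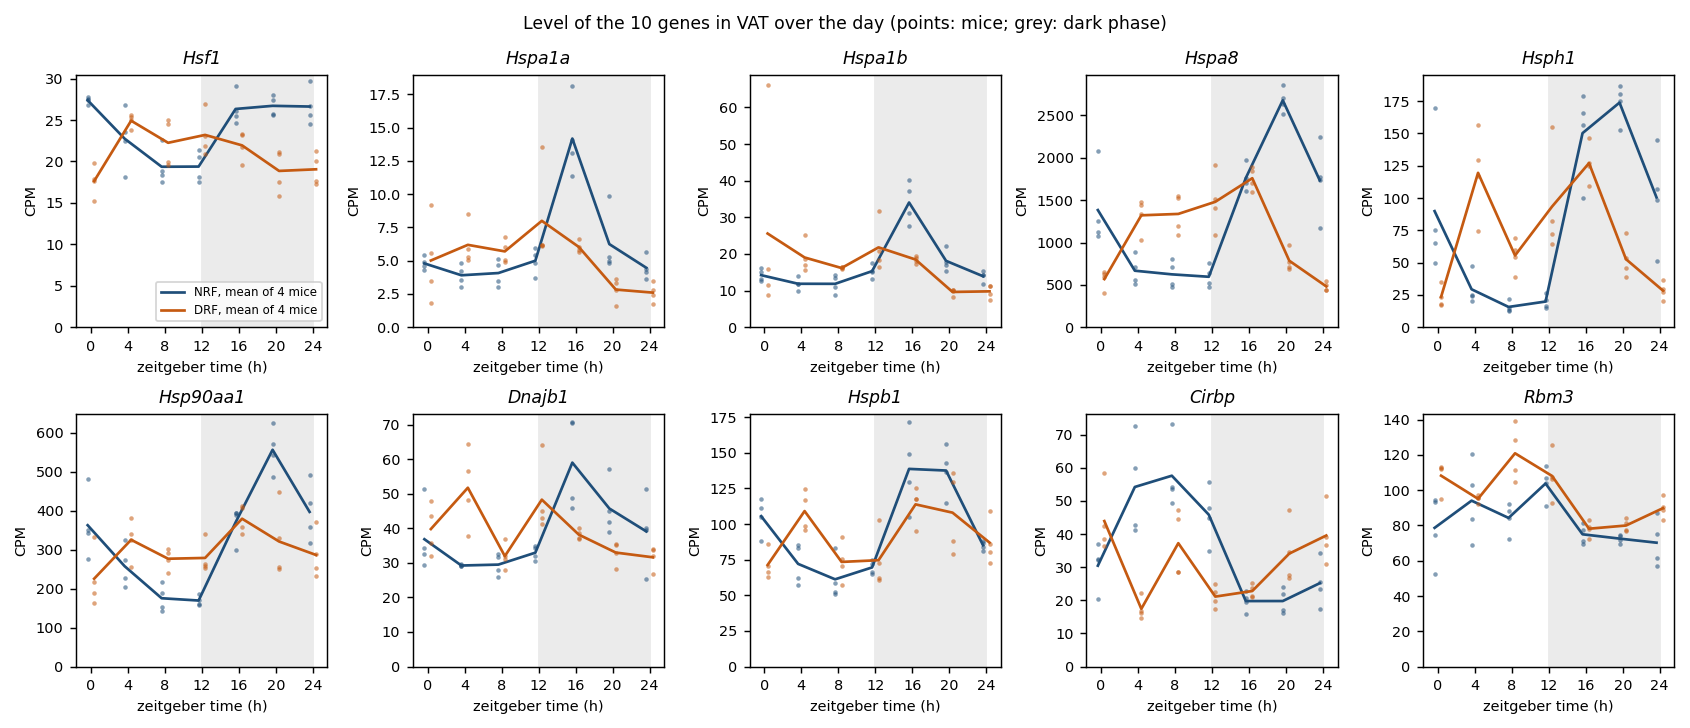
CPM of the 10 members (vertical axes, linear and starting at 0) against ZT in hours, with a point for each mouse and a line through the mean of 4 mice for NRF and DRF. Under NRF the chaperone genes have their highest mean at ZT16 or ZT20 and Hsf1 at ZT0. The mean of Hsph1 is 15.7 CPM at ZT8 and 174 CPM at ZT20. The mean of Cirbp is lowest at ZT16 and ZT20, at 19.8 CPM each.

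Hsph1, whose product resets Hsp70 by exchanging its nucleotide, had the largest NRF rhythm of the 10. Its level at ZT8 was 12.98, 12.8, 22.2 and 14.8 CPM in the 4 mice, and at ZT20 it was 181, 187, 175 and 152 CPM. The groups were far apart, with means 11.1-fold apart, and the mice at ZT0 spread widely, from 49.4 to 169.6 CPM. The amplitude was 1.87 ± 0.18 (SE, log2 scale) with a peak at 19.8 h (adjusted p of the combined rhythm test = 1.8e-08). Hspa8 followed the same course at a far higher level, from 755, 472, 521 and 635 CPM at ZT12 to 2639.5, 2703, 2860.1 and 2515 CPM at ZT20. Every mouse at ZT20 was above every mouse of the other 6 time points, and the amplitude was 1.16 ± 0.11. Hsp90aa1, which matures kinases and steroid receptors, moved from 161, 159, 171 and 186 CPM at ZT12 to 487, 624, 543 and 569.7 CPM at ZT20. It had an amplitude of 0.83 ± 0.08 and a peak at 20.6 h.

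The inducible Hsp70 genes had their highest means at ZT16. Hspa1a was 4.86, 5.96, 3.73 and 5.44 CPM at ZT12, 14.1, 18.2, 11.3 and 13.1 CPM at ZT16 and 9.86, 4.85, 5.31 and 4.96 CPM at ZT20. Only at ZT16 was every mouse above all mice of the other NRF time points. Hspa1b had the same peak at a higher level, with 15.0, 17.5, 13.2 and 15.5 CPM at ZT12 and 37.1, 40.3, 31.2 and 27.5 CPM at ZT16. Dnajb1, which delivers substrates to Hsp70, was also highest at ZT16, at 70.4, 70.8, 45.9 and 48.8 CPM against 29.0, 29.3, 29.6 and 29.0 CPM at ZT4. The fitted peaks of these 3 genes were at 16.7, 16.8 and 17.9 h (SE 0.65, 0.72 and 0.62 h). Those of Hspa8 and Hsph1 were at 19.9 and 19.8 h (SE 0.34 and 0.35 h). The difference between genes in peak time was not tested.

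Hspb1, a small heat shock protein that holds unfolded proteins and binds actin, was 50.7 to 83.2 CPM at ZT8 and 105 to 171 CPM at ZT16, with an amplitude of 0.63 ± 0.09. Hsf1 itself moved little, between a mean of 19.4 ± 2.24 CPM (SD) at ZT8 and 27.4 ± 0.385 CPM at ZT0. Its amplitude of 0.27 ± 0.04 was nevertheless larger than its error, with a peak at 21.0 h. Cirbp was high by day and low by night, with 54.1, 73.3, 49.5 and 53.4 CPM at ZT8 and 19.6, 15.8, 20.8 and 22.8 CPM at ZT16. The mice of these groups did not overlap, and its fitted peak was at 7.20 h with an amplitude of 0.87 ± 0.11. Over the 7 NRF group means, Cirbp and Hsph1 had a Pearson correlation of -0.98, a description over time points that share their libraries. Rbm3 was 91.0 to 113 CPM at its highest time point, ZT12, and 57.2 to 87.2 CPM at its lowest, ZT24.

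How the genes followed food moved into the light phase was then asked of the DRF mice. With food by day, the 24 h amplitude of Hspa8, Hsph1, Hsp90aa1 and Hspb1 was below that under NRF, with a 95% interval of the ratio below equality. The intervals of the other heat shock members held equality. The share of all genes by this criterion is not given here. Several heat shock genes were high at both ZT4 and ZT16. A 24 h rhythm was called in 4 of the 10 members (Hspa8, Hsph1, Hspa1a and Rbm3), against 13.5% of all genes, and 3 were called under both regimens, against 8.2%. Among the genes with a mean log2(CPM + 1) of at least 1, 21.6% were called under DRF. The calls of Hsph1 (adjusted p = 0.023) and Hspa1a (0.024) were lost with any replicate number left out and without the ZT24 mice, which left 2 members. Without the 2 libraries with uterine markers, Hspa1b was called as well (adjusted p = 0.0040). By contrast, limma's F test among the 7 time points, which assumes no shape and was added after the values were seen, called all 10 members under either regimen. This test called 27.6% of all genes under NRF and 28.2% under DRF. Of the adipocyte and blood genes, the combined test called 2 of 6 and 0 of 5 under DRF, and limma's F test of the cosine 4 and 2. The adipocyte sum under DRF had medians from 16959 CPM at ZT12 to 25677 CPM at ZT24. The part of these genes in the members' DRF values was not tested.

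Hsph1 in DRF mice was 17.997, 35.1, 23.4 and 17.2 CPM at ZT0 and 129.6, 74.7, 117 and 157 CPM at ZT4. It was 54.4, 39.0, 69.1 and 59.5 CPM at ZT8 and 125, 109, 147 and 127 CPM at ZT16. The 4 mice at ZT4 and the 4 at ZT16 were each above the 4 at ZT8, so that the day held 2 maxima. Cirbp was the mirror image, at 16.2, 22.2, 16.6 and 14.6 CPM at ZT4, 47.3, 44.5, 28.6 and 28.5 CPM at ZT8 and 22.6, 24.8, 19.7 and 17.4 CPM at ZT12. Its mice at ZT8 were all above those at ZT4 and ZT12. Hspb1 was 98.9, 96.1, 117 and 125 CPM at ZT4, 57.2, 70.3, 91.0 and 75.2 CPM at ZT8 and 118, 125, 95.1 and 118 CPM at ZT16. Hspa8 showed no dip, being 1032 to 1479.5 CPM at ZT4, 1086 to 1548 CPM at ZT8 and 1597 to 1889 CPM at ZT16, and it was 689.5 to 969.9 CPM at ZT20. The mice at ZT20 lay below every mouse from ZT4 to ZT16.

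Departure from a single 24 h cosine was measured as a 12 h cosine beside the 24 h terms, a test chosen after these values were seen. Under DRF it was called by limma in 4 of the 10 members (Hspa8, Hsph1, Hspb1 and Cirbp), against 1.2% of all genes. The 12 h amplitude of Hsph1 was 0.87 ± 0.13 (SE, log2 scale), with maxima at 4.30 and 16.3 h (adjusted p = 3.9e-04). It was larger than the 24 h amplitude of the same gene, 0.80 ± 0.17, by less than their errors. In Hspa8, which had a plateau with no dip, it was 0.49 ± 0.08, in Hspb1 0.33 ± 0.07 and in Cirbp 0.47 ± 0.10. The maxima of Cirbp were at 9.60 and 21.6 h, between those of Hsph1. With a replicate number left out, 1 to 2 members were called. Hspa1b was called as well without the 2 libraries with uterine markers (adjusted p = 0.043, 0.28 with them). At an unadjusted p under 0.05 all 10 were called under DRF, against 14.7% of all genes. Under NRF limma called 0 of 10 (0 without the intensity trend), against 0.027% of all genes, and 4 at an unadjusted p under 0.05, against 5.76%, and the 12 h amplitude of Hsph1 was 0.33 ± 0.13. The difference between regimens in the 12 h component was not tested.

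**Figure D2:**
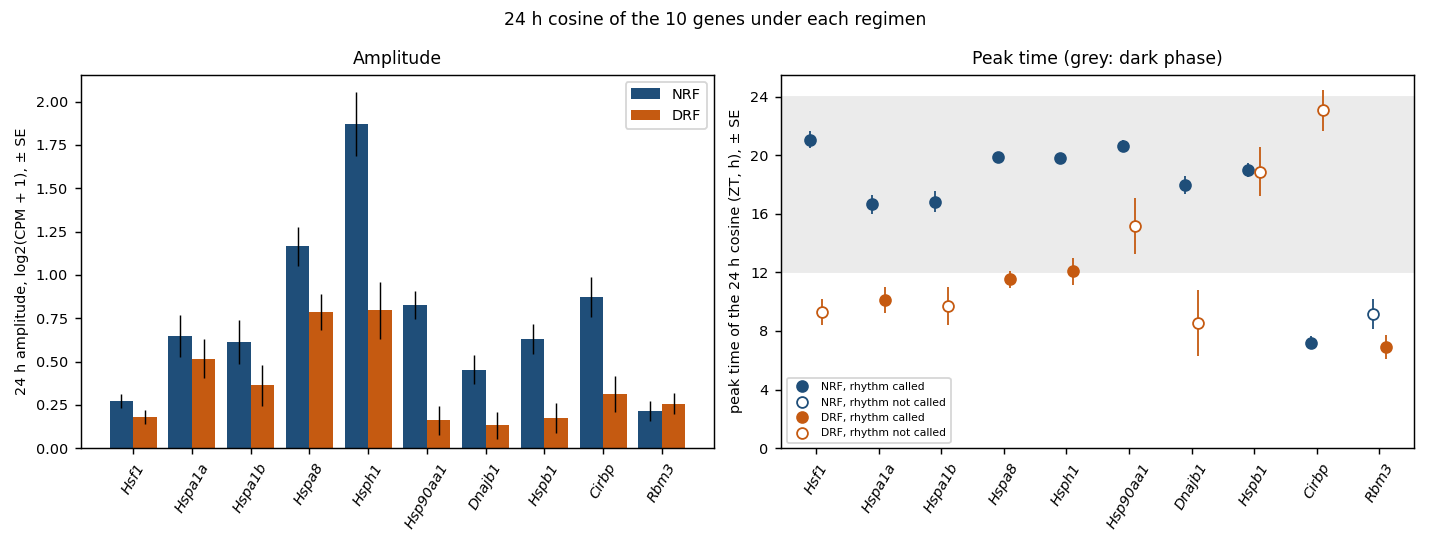
Amplitude of the 24 h cosine on the log2(CPM + 1) scale and time of its peak in hours for the 10 members under NRF and DRF, with bars for the SE of each estimate and filled points where the combined test called a rhythm. The amplitude is smaller under DRF in 9 of 10 members, from 1.87 to 0.80 in Hsph1, and larger in Rbm3.

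The 24 h rhythms of both regimens were compared in limma, first at equal ZT. They differed in 9 of the 10 members, against 36% of all genes, the exception being Rbm3 (adjusted p = 0.38). The smallest adjusted p-values were those of Hspa8 (4.4e-13), Hsph1 (2.2e-10) and Hsf1 (2.7e-08). That of Hspb1 (0.0086) was lost without replicate 4 (adjusted p = 0.0959). When the NRF curve was moved by 12 h, so that the regimens were lined up by the phase with food, 8 members still differed, against 14.9% of all genes. Hsf1 (adjusted p = 0.52) and Dnajb1 (0.071) did not pass. A p above the threshold does not show that their curves coincide. Of the 8, the call of Hspa1b (0.026) was lost without replicate 1, 2 or 3 (adjusted p = 0.13, 0.29 and 0.10) and that of Cirbp (0.0029) without replicate 2 (0.13).

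In size, the 24 h amplitude was smaller under DRF in 9 of the 10 members, in 55.1% of all genes and in 58.99% of those with a mean log2(CPM + 1) of at least 1. The median over the members was 0.64 under NRF and 0.29 under DRF, while it was 0.096 and 0.088 over all genes and 0.16 and 0.14 over those with such a level. Hsp90aa1 kept 19.5% of its NRF amplitude (95% interval 6.88 to 55.01%), Hspb1 27.9% (9.91 to 78.5%) and Cirbp 35.9% (17.6 to 73.0%). Hspa8 kept 67.5% (48.8 to 93.4%) and Hsph1 42.5% (26.8 to 67.6%). The intervals of the other 5 members held equal amplitudes. The DRF amplitude of Hspa1b went from 0.36 to 0.51 without the 2 libraries with uterine markers.

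Shifts of the fitted peak are given as DRF minus NRF. The peak was earlier under DRF by an interval that held neither 0 nor 12 h in Hspa1a, Hspa1b, Hspa8, Hsph1, Hsp90aa1 and Cirbp. Of these, Hspa1b, Hsp90aa1 and Cirbp had no DRF rhythm called by the combined test over all libraries. The intervals of Hsf1 and Dnajb1 held 12 h, where earlier and later cannot be told apart, and those of Hspb1 and Rbm3 held 0. The share of all genes with such shifts is not given here. Hsf1 moved by -11.7 h (95% interval -13.9 to -9.61 h), which held a full inversion of 12 h. Hspa8 moved by -8.34 h (-9.66 to -7.03 h) and Hspa1a by -6.52 h (-8.71 to -4.32 h), and neither interval reached 12 h or 0. The shift of Hsph1 was -7.73 h (-9.68 to -5.79 h). Its fitted DRF peak, at 12.1 h, lay between its high values at ZT4 and ZT16. This shift is therefore not that of a single peak. Hspa8, Hspb1 and Cirbp also had a 12 h component called under DRF, and a single cosine describes their DRF course only in part. For Rbm3 the shift was -2.24 h (-4.88 to 0.410 h) and for Hspb1 -0.107 h (-3.64 to 3.43 h), and both intervals held 0. The DRF cosines of Hsp90aa1, Dnajb1 and Hspb1 had amplitudes of 0.16 ± 0.08, 0.13 ± 0.08 and 0.18 ± 0.09, between 1.65 and 2.01 times their errors, so that their peak times are poorly set.

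What happened in the hours after each change of light was then compared, by 4 h steps between group means in limma, chosen after the values were seen. In NRF mice, from ZT12 to ZT16, the start of the dark phase with food, each of the 10 members changed: the 8 heat shock members rose and Cirbp and Rbm3 fell. Of all genes, 7.66% changed, 3.85% upward and 3.81% downward. Hsph1 rose most, by 2.85 ± 0.30 (SE, log2 scale, 7.23-fold, adjusted p = 9.4e-09), from 21.0, 15.2, 16.7 and 26.6 CPM to 166, 179, 100.2 and 156 CPM. The 2 groups were far apart, although replicate 3 at ZT16 was lower than the other 3 mice. Hspa8 rose by 1.58 ± 0.21, Hspa1a by 1.33 ± 0.25, Hsp90aa1 by 1.12 ± 0.18 and Hspa1b by 1.09 ± 0.27. The rises of Hspb1 (0.96 ± 0.17), Dnajb1 (0.80 ± 0.17) and Hsf1 (0.43 ± 0.10) were smaller. Cirbp fell by 1.17 ± 0.21 and Rbm3 by 0.46 ± 0.13. With a replicate number left out, 7 to 10 members were called.

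In DRF mice the matching step, from ZT0 to ZT4, the start of the light phase with food, changed 6 of the 10 members. Hsph1 (2.31 ± 0.30), Hspa8 (1.23 ± 0.21), Hspb1 (0.61 ± 0.17), Hsp90aa1 (0.57 ± 0.18) and Hsf1 (0.48 ± 0.10) rose. Cirbp fell by 1.28 ± 0.21, from 58.4, 36.3, 38.6 and 42.4 CPM to 16.2, 22.2, 16.6 and 14.6 CPM, without overlap of the mice. In this step 17.9% of all genes changed, 9% rose and 8.86% fell. The call of Hsp90aa1 (adjusted p = 0.027) was lost without the 2 libraries with uterine markers (adjusted p = 0.14). Without them Hspa1a and Hspa1b were called, with rises of 0.69 (adjusted p = 0.0455) and 0.63 (0.0105). With them the changes were 0.39 ± 0.25 and 0.03 ± 0.27. In DRF ZT0 replicate 4, Hspa1b was 66.0 CPM, against 8.79, 15.97 and 11.5 CPM in the other 3 mice. The other library with uterine markers, DRF ZT8 replicate 1, had 16.4 CPM of Hspa1b, beside 16.3, 15.9 and 16.1 CPM in its group. Of 9 immediate early genes, which respond to tissue handling within minutes, 4 were highest in DRF ZT0 replicate 4 among the mice of its group (Fos, Jun, Junb and Ier3), with 205 CPM of Ier3 against 5.67, 44.3 and 28.8 CPM in the other mice and 69.1 CPM of Junb against 14.7, 17.1 and 24.3 CPM. The other 5 were highest in other mice, Egr1 at 101 CPM in replicate 3 against 26.1 CPM in replicate 4. The part of the uterine markers and of handling in these values was not tested.

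**Figure D3:**
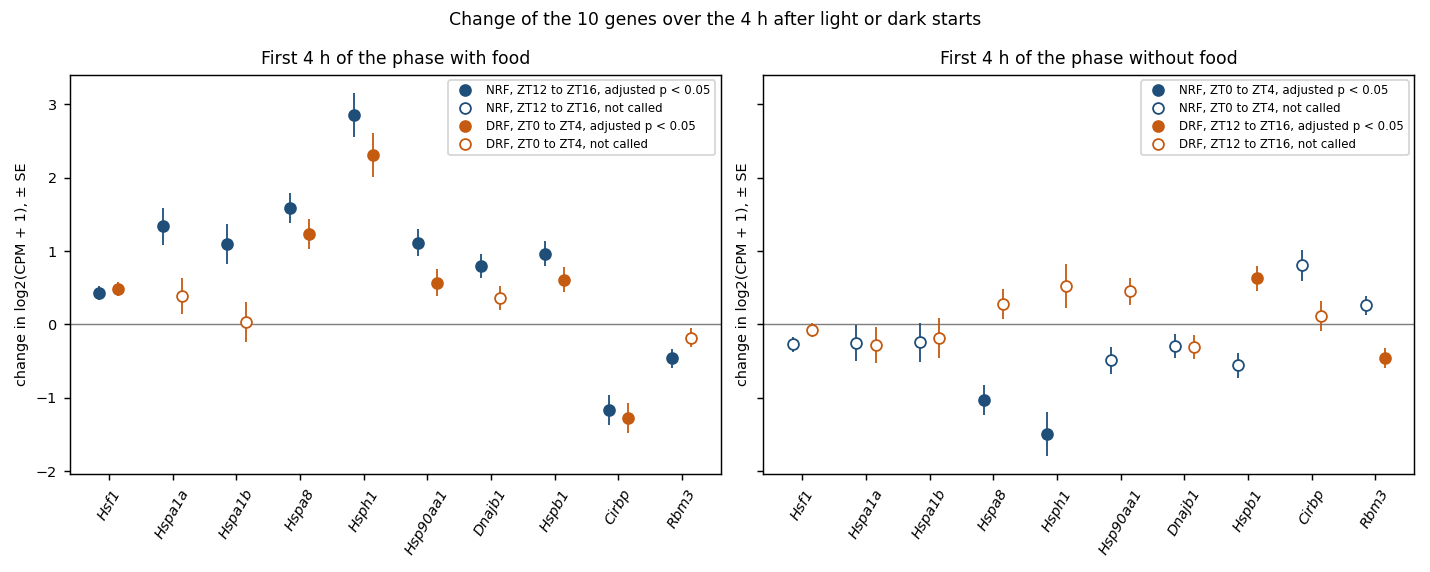
Log2 change over 4 h of the 10 members, with bars for the SE and filled points where limma's adjusted p was under 0.05, in the first 4 h of the phase with food (ZT12 to ZT16 under NRF, ZT0 to ZT4 under DRF) and of the phase without food (ZT0 to ZT4 under NRF, ZT12 to ZT16 under DRF). In the phase with food 8 heat shock members rise under NRF and 5 under DRF, Hsph1 by 2.85 and 2.31, and Cirbp falls by 1.17 and 1.28.

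At the start of the phase without food, 2 members were called in each regimen. The difference from the steps with food was tested only within each clock step, between regimens. In NRF mice from ZT0 to ZT4, Hspa8 fell by 1.03 ± 0.21 and Hsph1 by 1.49 ± 0.30, 2 of 10 members against 0.305% of all genes. At an unadjusted p under 0.05 there were 6 members, and the share of all genes at that threshold is not given here. Cirbp rose in the fit without the 2 libraries with uterine markers (0.80, adjusted p = 0.043, 0.062 with them), which made 3 of 10, and in the fit with the replicate block (adjusted p = 0.0493). None was called without replicate 2, 3 or 4 (5 each at an unadjusted p under 0.05), and 4 without replicate 1. In DRF mice from ZT12 to ZT16, Hspb1 rose by 0.63 ± 0.17 and Rbm3 fell by 0.46 ± 0.13, again 2 of 10, against 3.18% of all genes (1.21% upward and 1.97% downward). At an unadjusted p under 0.05 there were 3 members in this step, again with no share of all genes given. There, no member was called without replicate 1, 2 or 3 (4, 2 and 2 at an unadjusted p under 0.05) and 1 without replicate 4. At lights off, Rbm3 thus fell under both regimens, by 0.46 and 0.46, with a difference of 0.01 (95% interval -0.37 to 0.38).

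The same clock step differed between regimens in most members. From ZT12 to ZT16, 7 of 10 differed, against 8.81% of all genes, with a difference (DRF minus NRF) of -2.33 ± 0.43 in Hsph1 and 1.28 ± 0.29 in Cirbp. From ZT0 to ZT4, 7 of 10 differed, against 16.7%, with 3.80 ± 0.43 in Hsph1, 2.26 ± 0.29 in Hspa8 and -2.08 ± 0.29 in Cirbp. That of Dnajb1 (adjusted p = 0.0475) was lost without the 2 libraries (0.085), and those of Hspa1a (0.040) and Hspa1b (0.0076) were gained. When the 2 steps with food were set against each other, DRF from ZT0 to ZT4 minus NRF from ZT12 to ZT16, limma called 0 of 10 members. At an unadjusted p under 0.05 there were 3 (Hspa1a, Hspa1b and Hsp90aa1), and with voom weights or without the intensity trend 0 after adjustment. Of all genes 0.27% were called, and 14.3% at an unadjusted p under 0.05. The intervals were wide, -0.54 (-1.40 to 0.31) in Hsph1, -0.36 (-0.94 to 0.23) in Hspa8 and -0.11 (-0.70 to 0.47) in Cirbp. Equal steps are therefore not shown.

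At single time points, the level of each member was compared between regimens. Of the 70 comparisons (10 members at 7 time points), limma called 35, of which 15 were higher and 20 lower under DRF. Over all genes and time points 13.9% were called. In 42 of the 70 the 4 DRF mice did not overlap the 4 NRF mice, against 17.4% over all genes. From ZT0 to ZT24 the members called numbered 6, 5, 5, 5, 3, 7 and 4 of 10. Of all genes 10.5, 19.5, 16.5, 16.1, 9.97, 13.1 and 11.3% were called at these time points. The fewest member calls were at ZT16 and the most at ZT20. With a replicate number left out, 26 to 30 comparisons were called.

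**Figure D4:**
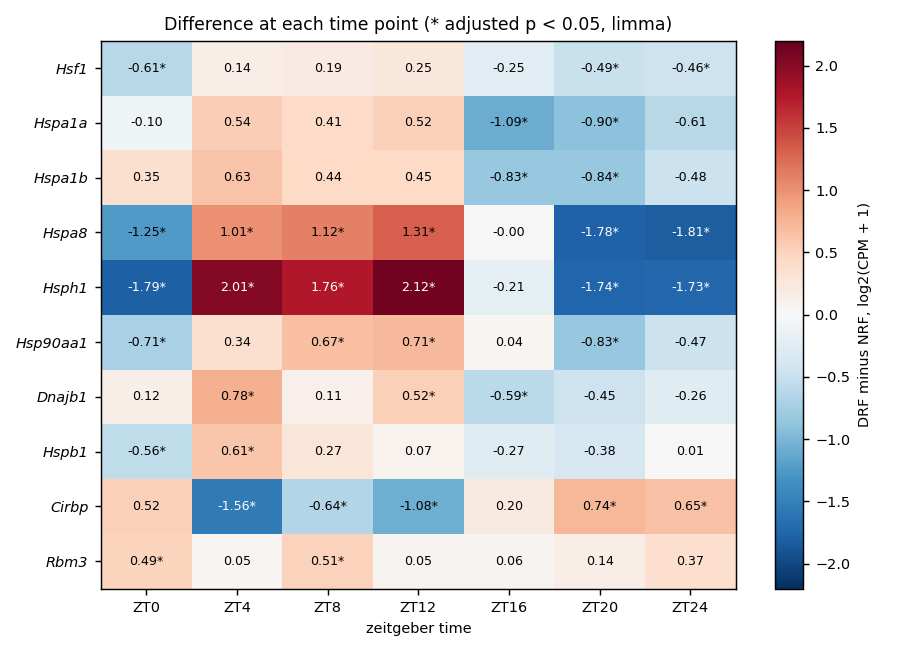
Difference DRF minus NRF on the log2(CPM + 1) scale for each of the 10 members (rows) at each ZT in hours (columns), with the colour giving its size and a mark where limma's adjusted p was under 0.05. Hspa8 and Hsph1 are higher under DRF from ZT4 to ZT12 and lower at ZT20 and ZT24, with Hsph1 at 2.12 at ZT12 and -1.74 at ZT20, and Cirbp runs the other way.

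In the light phase, from ZT4 to ZT12, several chaperone genes were higher in DRF mice, Hspa8 and Hsph1 at all 3 time points. Hsph1 at ZT12 was 82.2, 64.1, 72.3 and 155 CPM under DRF and 21.0, 15.2, 16.7 and 26.6 CPM under NRF, a difference of 2.12 ± 0.30 (SE, log2 scale, adjusted p = 1.6e-06). The lowest DRF mouse was above the highest NRF mouse, and DRF replicate 4 stood above the other 3. Hspa8 was higher by 1.01 at ZT4, 1.12 at ZT8 and 1.31 at ZT12. Hsp90aa1 was higher at ZT8 (0.67) and ZT12 (0.71), calls lost without replicate 1 and replicate 2, in turn (adjusted p = 0.089 and 0.0549). Dnajb1 was higher at ZT4 (0.78) and ZT12 (0.52), and Hspb1 at ZT4, where its mice were 98.9, 96.1, 117 and 125 CPM under DRF and 85.5, 62.5, 83.3 and 56.9 CPM under NRF. Without replicate 4 the calls of Dnajb1 at ZT12 (adjusted p = 0.22) and of Hspb1 at ZT4 (0.14) were lost, and that of Dnajb1 also without replicate 2 (0.10). Cirbp was lower under DRF at ZT4, by 1.56 ± 0.21, with 16.2, 22.2, 16.6 and 14.6 CPM against 42.7, 72.7, 41.3 and 60.1 CPM. It was also lower at ZT12 (-1.08) and at ZT8 (-0.64), the latter not without replicate 2, 3 or 4 (adjusted p up to 0.16). Hspa1b was higher at ZT4 and ZT12 without the 2 libraries with uterine markers (adjusted p = 0.0033 and 0.045, 0.0993 and 0.30 with them).

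At ZT16, the mice of the regimens overlapped in Hspa8, with 1843, 1597, 1889 and 1707 CPM under DRF and 1704, 1763, 1606 and 1973 CPM under NRF, and in Hsph1. The genes lower under DRF there were Hspa1a, Hspa1b and Dnajb1, which had their highest NRF means at this time. Hspa1a was 6.03, 6.66, 5.65 and 5.79 CPM under DRF and 14.1, 18.2, 11.3 and 13.1 CPM under NRF, a difference of -1.09 ± 0.25. The calls of Hspa1b and Dnajb1 at ZT16 were lost without some replicate numbers (adjusted p up to 0.24 and 0.13, both without replicate 2). At ZT20, Hspa8 was 709, 969.9, 689.5 and 773 CPM under DRF and 2639.5, 2703, 2860.1 and 2515 CPM under NRF. Every DRF mouse was below every NRF mouse, by 1.78 ± 0.21 between the means, and Hsph1 (-1.74) and Hsp90aa1 (-0.83) were lower as well. Hsf1 was lower under DRF at ZT0 (-0.61 ± 0.10), ZT20 (-0.49) and ZT24 (-0.46), with 17.6, 19.8, 15.2 and 17.9 CPM against 27.7, 27.4, 26.8 and 27.6 CPM at ZT0. The mice did not overlap at these 3 time points, and the call at ZT24 was lost without replicate 4 (adjusted p = 0.069). Without the 2 libraries with uterine markers, Hspa1b was lower and Rbm3 higher at ZT24 (adjusted p = 0.037 and 0.0496, 0.29 and 0.060 with them). The lower Hspb1 at ZT0 (-0.56, adjusted p = 0.025) was lost without them (-0.50, 0.062), and the difference of Hspa1b at ZT0, which passed in neither fit, turned from 0.35 to -0.25. ZT0 and ZT24, which are the same hour of the cycle in different mice, gave differences of -1.25 and -1.81 in Hspa8 and -1.79 and -1.73 in Hsph1.

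The mean level over the day differed in 2 of the 10 members, against 21.7% of all genes, a share near the background. Rbm3 was higher under DRF by 0.22 ± 0.06 (SE, log2 scale, adjusted p = 0.0031). Its clearest time points were ZT8, with 139, 112, 129 and 104 CPM against 72.2, 92.5, 88.0 and 84.5 CPM, and ZT0, with 112, 95.3, 113 and 113 CPM against 52.6, 93.3, 74.6 and 94.2 CPM. The groups did not overlap at either, although the call at ZT0 was lost without replicate 1 or 3 (adjusted p = 0.080 and 0.0986). The higher mean was lost without replicate 1 (0.12, adjusted p = 0.12). Hsf1 was lower by 0.13 ± 0.04 (adjusted p = 0.018), a call that was lost without replicate 2 (adjusted p = 0.064) or 4 (0.15). Cirbp differed by -0.25 ± 0.11 (adjusted p = 0.0998), and by -0.30 without the 2 libraries with uterine markers (adjusted p = 0.025). It was also called without replicate 1 (adjusted p = 0.040). Blood genes moved with the regimen too: all 5 on the list differed in mean level, with sums of 176 to 746 CPM under NRF and 209 to 859 CPM under DRF, as did 2 of 6 adipocyte, 2 of 5 mesothelium and 2 of 4 macrophage genes, and their part in these means was not tested. The means of the other 7 members, the chaperones, did not pass, with differences from -0.14 (Hspa1a) to 0.30 (Hsph1).

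Around the members, a list of 50 other genes of the chaperone network was measured, all 50 found in the table. A 24 h rhythm was called in 32 under NRF (64%, against 25.2% of all genes and 40.6% of those with a mean log2(CPM + 1) of at least 1). Under DRF it was called in 7 (14%), near the 13.5% of all genes and below the 21.6% of those with such a level, and in 5 under both, against 8.2% of all genes. The 24 h rhythm differed in 34 at equal ZT and in 18 after the 12 h move, against 36% and 14.9% of all genes and 53.96% and 23.2% of those with a mean log2(CPM + 1) of at least 1. The count of rhythmic genes under DRF was 23 by the 24 h cosine in limma (26.7% of all genes) and 29 by the F test among time points (28.2%), 11 without the 2 libraries with uterine markers, 2 to 3 with a replicate number left out and 2 without the ZT24 mice. Their median amplitude was 0.29 under NRF and 0.15 under DRF, and the 12 h component was called in 11 under DRF, against 1.2% of all genes. From ZT0 to ZT4 in DRF mice 26 rose and 1 fell, where 9% of all genes rose and 8.86% fell. From ZT12 to ZT16 in NRF mice 12 rose and 1 fell, where 3.85% of all genes rose and 3.81% fell. Under the rule for the largest rhythms, Chordc1, an Hsp90 cochaperone, had an NRF amplitude of 0.97 ± 0.10 and a DRF amplitude of 0.35 ± 0.09. Its mice were 112, 113, 117 and 101 CPM at ZT20 under NRF and 46.4, 50.1, 57.8 and 41.8 CPM under DRF, which did not overlap. Hspa4l, an Hsp110 relative, went from 0.97 ± 0.09 to 0.36 ± 0.09, Dnaja1, an Hsp40, from 0.97 ± 0.10 to 0.43 ± 0.09, and Hspb8, a small heat shock protein of selective autophagy, from 0.67 ± 0.10 to 0.23 ± 0.10.

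**Figure D5:**
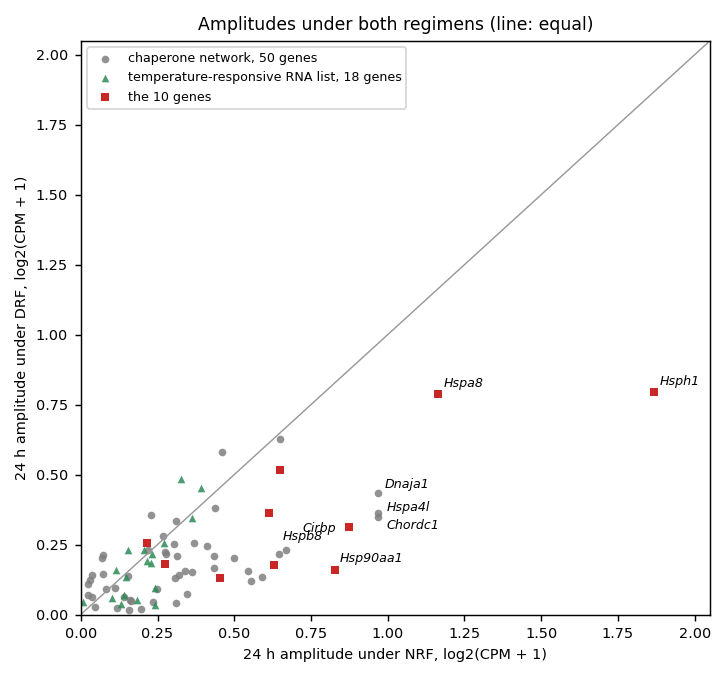
Amplitude of the 24 h cosine under DRF (vertical axis) against that under NRF (horizontal axis), both on the log2(CPM + 1) scale, for the 10 members, the chaperone network and the temperature-responsive RNA list, with a line of equal amplitude. The amplitude is smaller under DRF in 36 of the 50 chaperone network genes and 12 of the 18 RNA genes.

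In mean level, 12 of the 50 chaperone network genes were higher and 1 was lower under DRF, against 11.4% and 10.3% of all genes. Without the 2 libraries with uterine markers 20 were called in all. Leaving out a replicate number gave 7 to 9 calls. The largest rise was that of Cryab, the small heat shock protein alpha B-crystallin, by 0.95 ± 0.10 (SE, log2 scale, limma adjusted p = 3.5e-10). At ZT12 it was 165, 133, 164 and 157 CPM under DRF and 47.4, 53.9, 70.6 and 63.5 CPM under NRF. The mice were far apart there, while Hspb1 at the same time was 60.8, 62.4, 72.5 and 103 CPM and 71.9, 66.6, 65.1 and 74.6 CPM. Hspb6, a small heat shock protein of muscle and fat, rose by 0.32 ± 0.06, and Dnajc7, a cochaperone that binds both Hsp70 and Hsp90, fell by 0.11 ± 0.03. Cryab and Hspb6 are also abundant in muscle, and the part of muscle in their values was not tested. The 6 skeletal muscle markers summed to a median of 39.6 CPM under NRF and 59.2 CPM under DRF, and limma called 0 of the 6 in mean level (0 at an unadjusted p under 0.05 and 0 with voom weights). At ZT12 their median was 79.0 CPM under NRF and 32.8 CPM under DRF. Their highest sums were 544 CPM in NRF ZT8 replicate 4, where Cryab was 59.9 CPM in a group of 47.8 to 67.6 CPM and Hspb6 was highest of its group at 26.3 CPM, and 409 CPM in DRF ZT16 replicate 2.

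A list of 18 genes whose level or activity is held to follow temperature held splicing and RNA-binding factors, and Rtn3, whose product is a membrane protein of the endoplasmic reticulum. Of the 18, 12 had a 24 h rhythm under NRF, 8 under DRF and 7 under both, against 25.2%, 13.5% and 8.2% of all genes and, at a mean log2(CPM + 1) of at least 1, which 17 of the 18 reached, 40.6% under NRF and 21.6% under DRF. The 24 h rhythm of 11 differed at equal ZT and that of 3 after the 12 h move, against 36% and 14.9% of all genes and 53.96% and 23.2% of those with a mean log2(CPM + 1) of at least 1. With a replicate number left out, 4 to 7 were rhythmic under NRF and 4 to 6 under DRF, and 4 under DRF without the ZT24 mice. Srsf3, a splicing factor, had amplitudes of 0.33 ± 0.05 under NRF and 0.48 ± 0.05 under DRF, with peaks at 19.96 and 8.10 h. Srsf2 (0.39 ± 0.06 and 0.45 ± 0.05), Srsf1 (0.36 ± 0.05 and 0.34 ± 0.05) and Hnrnph1 (0.27 ± 0.06 and 0.26 ± 0.05) were the other 3 with the largest NRF amplitudes, given here as NRF and DRF. In these 4 genes the 12 h component under DRF did not pass (adjusted p from 0.31 to 0.999). In mean level 1 gene of the list rose, Rtn3 (0.19), and 3 fell, with the splicing kinase gene Clk1 (-0.29 ± 0.09) and Rbmx (-0.19 ± 0.06) showing the largest falls. These 4 of 18 are a share near the 21.7% of all genes. Leaving out a replicate number gave 1 to 4 calls in mean level, and leaving out the ZT24 mice 2. There were 6 calls with the replicate block and 6 without the 2 libraries with uterine markers.

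Immediate early genes were measured beside the heat shock genes as a record of tissue handling. Of 9 such genes, 2 had a 24 h rhythm under NRF (Junb and Ier3), against 25.2% of all genes, and the 24 h rhythm of 1, Jun, differed at equal ZT, against 36%. Under DRF the combined test called 0 (1 at an unadjusted p under 0.05), with a smallest adjusted p of 0.12 (Ier2), and the 24 h cosine in limma called Ier2 (0.0033). The F test among the 7 time points called 3 under NRF and 5 under DRF, namely Ier2 (adjusted p = 3.9e-05), Ier3 (0.0016), Junb (0.022), Jun (0.026) and Dusp1 (0.028), against 27.6% and 28.2% of all genes. Fos, Fosb, Egr1 and Atf3 did not pass under DRF (adjusted p from 0.0550 to 0.43). The part of these genes in the members' values was not tested. From ZT12 to ZT16 in NRF mice 2 rose, against 3.85% of all genes, and from ZT0 to ZT4 in DRF mice 1 changed, which fell, against 17.9% changed and 8.86% lower. In mean level the smallest adjusted p of limma was 0.34 (Atf3).

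The genes whose 14 group means ran most like each member were listed by Pearson correlation, as a description with no test. For Hsph1 these were Chordc1 (0.98) and Mkks (0.98), and for Hsp90aa1 Ahsa1 (0.98) and Stip1 (0.96), the genes of Hsp90 cochaperones. Hspa1a and Hspa1b shared Hspa2, another Hsp70 gene, as their nearest gene (0.94 and 0.89), followed by P4ha2 (0.90) and Sec14l1 (0.87). Hspa8 was nearest to Sppl2b (0.95) and Rnf20 (0.95), Dnajb1 to Stk38 (0.93) and Nufip2 (0.92), and Hspb1 to Tmem33 (0.94) and Ahsa2 (0.91). Those of Hsf1 were Mgme1 (0.96) and Krr1 (0.96), and those of Cirbp Taf1b (0.95) and Parn (0.94). Rbm3 had the least close companions, Pigt (0.83) and Tusc3 (0.83). Under DRF the 7 group means of Hsph1 and Cirbp kept a correlation of -0.92, and those of Cirbp and Rbm3 had 0.21, against 0.78 under NRF.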

How the data were processed

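Poly(A) RNA of VAT was sequenced from 56 mice. The submitters' processing notes name HISAT2 2.0.5, featureCounts 1.5.0-p3 and mm10. The values the authors deposited are called TPM but are treated here as a score, since they hold log2(CPM + 1) divided by exon length and rescaled per library. CPM and whole reads were recovered from the steps between low values for 25938 of 25939 genes (25926 with a symbol), with 99.9934% of 1262086 tested values within 0.02 reads of a whole number. Exon lengths came from the reference annotation for 25058 genes and from the values for 874. The 10 members used reference lengths. Wholeness was tested up to 10000 reads. Libraries held 31144102 to 41246347 reads on genes.

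The plan set the rhythm tests on the deposited values and limma on log2(CPM + 1) recovered from them. Rhythms were tested on the deposited score by JTK_CYCLE and Lomb-Scargle at 24 h combined by Fisher's method (Python 3.11.15, numpy 2.4.6, scipy 1.17.1, pandas 2.3.3), after MetaCycle, which the study used. All else was fitted in limma 3.58.1 (R 4.3.3) with an intensity trend on log2(CPM + 1) over all 56 libraries. A pseudocount of 1 understates changes of low genes. p-values were Benjamini-Hochberg adjusted over all genes, with a threshold of 0.05. Programs were tested on simulated data.

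Groups came from the labels. Replicate numbers named different mice. Whether mice shared a cage is not given, and p-values measure the spread between these mice. The members and lists were chosen with earlier results of these data known, and the 12 h test, the F test among time points, the 4 h steps and voom weights were added after the values were seen. Named list genes were the 4 with the largest NRF amplitude among rhythmic ones with a mean log2(CPM + 1) of at least 1, and the 2 largest rises and falls in mean level. Like genes needed a mean of at least 3. Alternatives covered scaling, pseudocount (0.1), filters, trend, threshold (0.01), ZT24, the replicate block, the 2 libraries with uterine markers and each replicate number. Genome sequence outside the promoter windows and proteins were not used here.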

Additional observations from a re-analysis of the deposited data

Results flagged for a closer look

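Within the 140 groups of 4 mice (10 members in 14 groups), 7 held a mouse far from the other 3, by a gap above Dixon's 95% limit for the range of the group. About 1 group in 20 does so by chance. Hspa1a in DRF ZT12 replicate 4 was 13.6 CPM, against 6.08 to 6.17 CPM in the other mice. In the same mouse Hsp90aa1 was 339.7 CPM, against 252 to 264 CPM. Hspa1b in DRF ZT0 replicate 4 was 66.0 CPM, against 8.79 to 15.97 CPM, in the library with the highest uterine epithelial markers. Hspa1a in NRF ZT20 replicate 1 was 9.86 CPM, against 4.85 to 5.31 CPM. The lowest mice were Hspa1b in DRF ZT20 replicate 2, at 8.17 CPM against 10.01 to 10.21 CPM, and Hsp90aa1 in NRF ZT16 replicate 3, at 299.7 CPM against 389.7 to 394.9 CPM. The other low mouse was that of Rbm3 in DRF ZT0 replicate 2, at 95.3 CPM against 111.7 to 113 CPM.

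The 24 h rhythm differed between regimens at equal ZT in 9 members by limma's F test. The adjusted p-values were 2.7e-08 for Hsf1, 1.4e-04 for Hspa1a, 0.0014 for Hspa1b, 4.4e-13 for Hspa8 and 2.2e-10 for Hsph1. They were 1.6e-07 for Hsp90aa1, 4.4e-04 for Dnajb1, 0.0086 for Hspb1 and 7.3e-07 for Cirbp.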

How the results depend on the processing

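No called value changed sign under the alternatives run. In 13 values of the members, none of them called, the sign changed in at least 1 alternative. The difference of Hspa1b at ZT0 was among them, at 0.35 and, without the 2 libraries, -0.25. Lomb-Scargle alone, after adjustment, called 0 rhythms in each regimen among the members (9 under NRF and 2 under DRF at an unadjusted p under 0.05), the chaperone network (28 and 2) and the RNA list (7 and 6). The share of all genes at an unadjusted p is not given here for this test or for the steps without food. Under DRF the main counts of rhythmic genes, 4 members, 7 chaperone network genes and 8 RNA genes, became 2, 2 and 4 without ZT24. The F test among the 7 time points gave 10 members and 29 chaperone network genes, the 24 h cosine in limma 23 chaperone network genes, log2(CPM + 1) 11 and the absence of the 2 libraries 11. At a threshold of 0.01 the counts were 2 members and 2 chaperone network genes under DRF, 7 RNA genes under NRF, 1 member, 7 chaperone network and 2 RNA genes in mean level, 2 members with a 12 h component under DRF, and 0 members in either step without food. Without the 2 libraries 20 chaperone network genes differed in mean level, and without ZT24 2 RNA genes. The DRF step from ZT12 to ZT16 had 0 calls on log2(deposited value + 1), with 3 at an unadjusted p under 0.05.

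When the mice of a replicate number were left out, rhythmic members were 9 under NRF and 2 under DRF, chaperone network genes 27 to 31 and 2 to 3, and RNA genes 4 to 7 and 4 to 6. Mean level differed in 1 to 2 members, 7 to 9 chaperone network genes and 1 to 4 RNA genes. The rhythm differed in 8 to 9 members by clock time and 6 to 8 by feeding time, and a 12 h component under DRF was called in 1 to 2. Members called were 26 to 30 of 70 at single time points, and, in the steps, 7 to 10 (NRF, ZT12 to ZT16), 0 to 4 (NRF, ZT0 to ZT4), 5 to 6 (DRF, ZT0 to ZT4) and 0 to 1 (DRF, ZT12 to ZT16). Each such fit has 3 mice per group.

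By correlation at equal ZT, no pairing of DRF and NRF libraries by replicate number was seen. The median r was 0.005 for the same number and -0.027 for other numbers. Whether the numbers stand for a shared cage or batch cannot be told from this. Of 28 same-numbered pairs of a DRF and an NRF library at equal ZT, 11 correlated above 0.1 (range -0.38 to 0.36). Of the 28 DRF libraries, 8 correlated best with their own number. With the replicate block 3 members changed from ZT0 to ZT4 under NRF, 36 of 70 time point comparisons were called, 2 members in mean level and 9 and 8 in rhythm by clock and feeding time. Among the members, the added calls were Cirbp in that step (adjusted p = 0.0493) and Rbm3 at ZT24 (adjusted p = 0.0488).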
